A study of Mus musculus with 2 samples.

Results

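Thbs1 Fn1 cells are myeloid cells from mouse liver tumours that carry messenger RNA of thrombospondin 1 and fibronectin 1, with limits on their counts of Arg1, the C1q genes, Cxcl9, Flt3 and the Cd3 genes. Members were selected on measured values: barcodes with at least 200 genes and at most 10% mitochondrial UMIs (unique molecular identifiers, which count captured RNA molecules), at least 5 UMIs of Lyz2, at least 2 of Thbs1 and at least 2 of Fn1, fewer than 5 of Arg1, fewer than 15 of C1qa, C1qb and C1qc together, at most 1 of Cxcl9, and none of Flt3, Cd3d, Cd3e or Cd3g. There were 2428 such cells among 19580 filtered barcodes and 19832 barcodes in all. Of them 1319 came from the anti-PD-1 library and 1109 from the isotype library.

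Both groups were wild-type mice of the C57/BL6 strain with tumours of Hepa1-6, a mouse hepatoma line, growing in the liver. One group had received an antibody that blocks PD-1, an inhibitory receptor of T cells, and the control group an isotype antibody of no known target. Living CD45-positive cells, that is immune cells, were enriched with magnetic beads, sorted and sequenced from the 3′ end of the RNA with 10x Genomics version 2 chemistry. Each group is 1 library, and the sources used here do not give the number, age or sex of its mice. With 1 library a group nothing can be tested between the antibodies, and every interval covers counting error only.

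Classical monocytes are made in the bone marrow, circulate in blood, enter tumours through the chemokine receptor Ccr2, and there turn into macrophages of several kinds. Thrombospondin 1 is a matrix glycoprotein that binds CD47 and CD36 and can activate latent TGF-beta, and fibronectin is an adhesive matrix protein bound by integrins. Interferon-gamma, made by T and NK cells, acts on monocytes and macrophages through IRF1 and other factors to switch on guanylate-binding proteins, immunity-related GTPases and antigen presentation genes.

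Thbs1 lies on chromosome 2 from 118111876 to 118127133 on the plus strand, Fn1 on chromosome 1 from 71585520 to 71653200 on the minus strand, Vcan on chromosome 13 from 89655312 to 89742509 on the minus strand and Lyz2 on chromosome 10 from 117277331 to 117282321 on the minus strand (mm10, GENCODE vM21, all protein coding). The sequences that carry the comparison between the libraries are the stretches just before the starts of 5 interferon-inducible genes that were higher in the anti-PD-1 members. They are shown because binding motifs of the interferon-activated factors are known to sit in such stretches. Each is the 150 bases before the start of the gene, 5′ to 3′ on the gene's strand, from RefSeq (GRCm38.p6, the same build as mm10). Capitals mark matches to TTCNNNGAA, the GAS motif of interferon-gamma responses, or to GAAANNGAAA, a core of the ISRE motif bound by interferon regulatory factors, on either strand. Matches may overlap.
Igtp (chr11:58199406-58199555, + strand): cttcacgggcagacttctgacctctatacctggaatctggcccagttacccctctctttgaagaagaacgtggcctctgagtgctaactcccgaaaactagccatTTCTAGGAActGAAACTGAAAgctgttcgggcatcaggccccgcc
Tgtp2 (chr11:49064213-49064362, - strand): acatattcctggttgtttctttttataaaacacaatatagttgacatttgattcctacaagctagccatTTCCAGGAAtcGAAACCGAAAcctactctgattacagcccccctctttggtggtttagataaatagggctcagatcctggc
Gbp2 (chr3:142620513-142620662, + strand): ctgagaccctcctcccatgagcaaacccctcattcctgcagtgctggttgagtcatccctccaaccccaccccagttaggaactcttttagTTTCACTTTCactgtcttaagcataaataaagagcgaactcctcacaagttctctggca
Irf1 (chr11:53769864-53770013, + strand): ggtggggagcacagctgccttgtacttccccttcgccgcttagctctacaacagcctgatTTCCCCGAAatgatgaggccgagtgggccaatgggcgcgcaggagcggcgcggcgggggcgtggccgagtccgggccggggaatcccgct
Ifi47 (chr11:49076437-49076586, + strand): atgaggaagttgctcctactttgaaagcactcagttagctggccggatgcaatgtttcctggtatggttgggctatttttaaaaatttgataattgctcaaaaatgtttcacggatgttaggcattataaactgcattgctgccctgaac

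Igtp and Tgtp2, both immunity-related GTPases, hold a GAS match and an ISRE-like match close together, with their first bases 45 and 34 before the start in Igtp and 81 and 70 in Tgtp2. Gbp2, a guanylate-binding protein, holds an ISRE-like match that begins 59 bases before the start. Irf1, the transcription factor, holds a GAS match at 90 bases before its upstream start. Ifi47, another immunity-related GTPase, has no match in this stretch. Of the 25 measured genes of the interferon-gamma response list, 18 had a RefSeq window, and over 250 bases before the start 7 of the 18 held GAS, 10 held the ISRE-like core and 13 held either. Among all 32851 RefSeq windows of that length, 7.02% held GAS, 2.98% the ISRE-like core and 9.67% either. The measures differ, since a list gene counted if any of its windows held a match, while these percentages count single windows. These counts describe letters, not binding.

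Depth was close between the libraries. Members had a median of 8908 UMIs and 2468 genes in the anti-PD-1 library and 9270 UMIs and 2474 genes in the isotype library, and their UMIs summed to 12266916 and 10617541. The 2 libraries shared 140 barcode sequences, of which 1 was a member in both. A doublet score above 0.25 was found in 52 anti-PD-1 members (3.94%) and 54 isotype members (4.87%). S100a8 and S100a9, calcium-binding proteins that fill neutrophils, were at 10 UMIs or more in 97 members (7.35%) and 106 members (9.56%), and these cells held 96.8% and 98.3% of all UMIs of the pair in the members. They are called the S100a8 and S100a9 cells.

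By their markers the members were monocyte-like. Lyz2, the lysozyme of myeloid cells, had medians of 107 and 100 UMIs per cell in the anti-PD-1 and isotype libraries, Thbs1 19 and 17, and Fn1 8 and 8; these values chose the cells. Vcan, a matrix proteoglycan of monocytes that the selection did not use, had a UMI in 68.0% and 67.5% of members. After each cell was thinned to 3000 UMIs, which left out 36 members in each library, the Vcan share was 45.0% (exact binomial interval 42.2 to 47.7) and 42.3% (39.3 to 45.3), against 0.171% and 0.599% of lymphocyte-gated cells, which should lack it. The same thinned shares were 90.3% and 90.4% for Tgfbi, a matrix protein induced by TGF-beta (0.512% and 0.998% in lymphocyte-gated cells), 61.8% and 65.3% for F10, coagulation factor X (0.171% and 0.599%), and 58.8% and 60.8% for Chil3, a chitinase-like protein of monocytes (0.171% and 0.399%). The lymphocyte-gated cells had medians of 7054 and 6024 UMIs.

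Classical monocyte genes were well covered. Levels are given in CPM, that is as a rate per total UMIs of the class in that library. Ly6c2, the surface marker of classical monocytes, was at 1352 in the anti-PD-1 and 1087 in the isotype library. Plac8, a lysosome-linked protein of monocytes, was at 3204 and 3025 CPM, and Ccr2, the receptor for Ccl2, at 373 and 351 CPM. The 14 listed macrophage genes summed to 2387 and 2293 CPM in the members, 2053 and 1506 CPM in Ly6c2 Chil3 gated cells, which had both of those genes but did not meet the Thbs1 and Fn1 limits, and 3074 and 2708 CPM in Arg1-high cells. They summed to 11450 and 11380 CPM in C1q-high cells. The list holds the C1q genes, on which the C1q-high cells were selected and the members limited, so part of that gap is set by the selection.

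Markers of most other cell types were low. Among 8 Kupffer cell genes, 6 were at 0 in each library, Clec4f, Timd4 and Marco among them, and the list summed to 2.85 and 1.79 CPM. All 5 red blood cell genes were at 0. Among 10 platelet genes, 6 and 4 were at 0 and the sum was 13.9 and 18.2 CPM, most of it Pf4. Among 11 hepatocyte and hepatoma genes 5 were at 0 in each library, Alb among them, and the sum of 244 and 280 CPM was nearly all Trf, transferrin. Gata6, the defining factor of resident peritoneal macrophages, was at 0 in both libraries, though the 12 genes of that list summed to 111 and 118 CPM, mostly Saa3. The 12 dendritic cell genes summed to 89.6 and 109 CPM and the 14 lymphocyte genes to 29.9 and 23.7 CPM. The dendritic list holds Flt3 and the lymphocyte list Cd3d, Cd3e and Cd3g. The selection required that these genes be absent, so part of both low sums is set by it. The 10 fibroblast and endothelial genes summed to 16.6 and 16.1 CPM and the 8 mast cell and basophil genes to 0.0815 and 2.45 CPM. Neutrophil genes were the exception, with 15 genes that summed to 2428 CPM in the anti-PD-1 and 4432 CPM in the isotype members.

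Of the filtered cells, 13.2% (exact binomial interval 12.5 to 13.9) of the anti-PD-1 and 11.6% (11.0 to 12.3) of the isotype cells were members. The shares lay 1.58 percentage points apart (0.655 to 2.50 by Newcombe's method). Against only the cells that met every other limit of the selection, they were 47.8% of 2761 and 48.1% of 2304, a difference of -0.361 points (-3.12 to 2.40). A share of all cells moves with every other cell type in the sort, and without replicate libraries neither difference can be set against the variation between mice. The limit on Arg1 removed the most cells, 768 and 899 that met all the others. The C1q limit alone removed 170 and 167, and the Cxcl9 limit alone 73 and 47.

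Cells just inside and just outside the limits on Thbs1 and Fn1 had close levels of Vcan and Tgfbi. Members with 2 UMIs of one of the 2 genes numbered 207 and 163, with 167 and 189 CPM of Vcan and 1170 and 1012 CPM of Tgfbi. Cells with 1 UMI of one of them numbered 286 and 245, with 150 and 168 CPM of Vcan and 1183 and 1109 CPM of Tgfbi. Members with at least 3 UMIs of both had 298 and 281 CPM of Vcan.

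**Figure D1:**
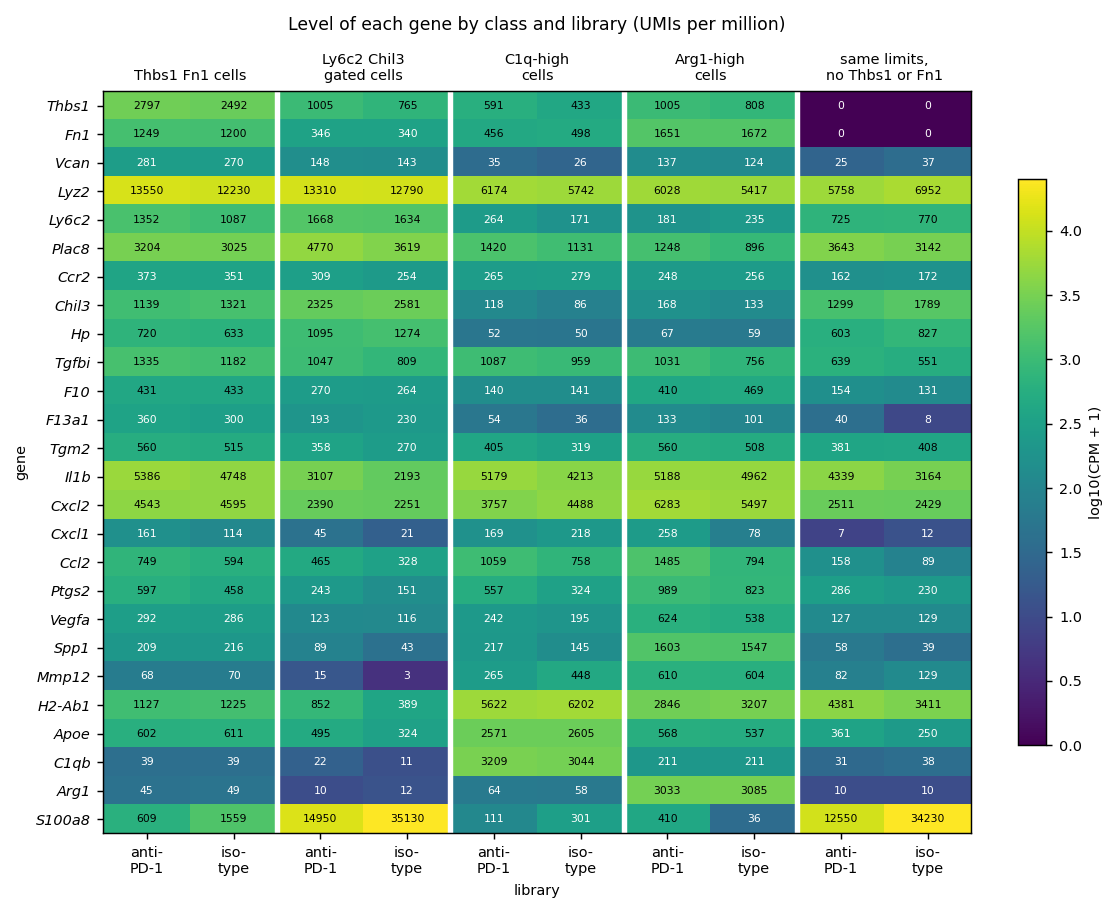
Level of 26 genes (rows) in the Thbs1 Fn1 cells and 4 comparison classes, each in the anti-PD-1 and the isotype library (columns); each field gives the CPM and colour gives log10(CPM + 1). Ly6c2 in the Thbs1 Fn1 cells, at 1352 and 1087 CPM, lies above the C1q-high and Arg1-high cells, H2-Ab1 at 1127 and 1225 CPM lies below them, and S100a8 stands out in both classes gated without Arg1 and C1q.

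The members were not uniform. In a clustering of all filtered cells of both libraries 6 clusters held at least 40 of them in each library, and since the clustering used these genes the differences between clusters are a description. Cluster 1, led by Mgst1, Ly6c2, Chil3 and F13a1, held 660 anti-PD-1 and 528 isotype members. Its members had 2070 and 1737 CPM of Ly6c2, 522 and 448 CPM of F13a1, the transglutaminase that crosslinks fibrin, and only 86.5 and 58.3 CPM of the MHC class II gene H2-Ab1.

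Cluster 3, led by Pf4, Cxcl1, Il6, Arg1 and Ccl2, held 194 and 162 members. They had the highest Thbs1 of the 6 clusters, at 5895 and 5094 CPM. Il1b, the inflammasome cytokine, was at 9989 and 9047 CPM, the neutrophil-attracting chemokine Cxcl2 at 12130 and 11910 CPM, and Ptgs2, the inducible prostaglandin synthase, at 1753 and 1236 CPM. F10 was also highest there, at 776 and 676 CPM. Ly6c2 was at 439 and 397 CPM, so this inflammatory profile went with less of the classical monocyte marker than in cluster 1.

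Cluster 5, led by Ccl24, Mmp12, Inhba and Fn1, held 148 and 149 members. They combined Fn1 at 2167 and 1945 CPM with Ccl24, an eosinophil-attracting chemokine, at 1081 and 1420 CPM and Mmp12, macrophage elastase, at 350 and 286 CPM. H2-Ab1 was at 5201 and 4884 CPM and Ly6c2 at 107 and 102 CPM, the reverse of cluster 1.

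Cluster 10, led by Ace, Adgre4, Treml4 and Gngt2, genes known from non-classical monocytes, held 150 and 107 members. In these members Ace, the angiotensin-converting enzyme, was at 85.2 and 123 CPM, Plac8 at 4203 and 4087 CPM and H2-Ab1 at 2702 and 2546 CPM. Ly6c2 was at 867 and 608 CPM. Other listed non-classical monocyte genes did not all go with Ace. Treml4 was at 47.7 and 48.0 CPM, against 27.6 and 26.1 CPM in cluster 1 members. Pglyrp1 was lower than in cluster 1, at 10.9 and 3.84 against 38.5 and 45.6 CPM. Cx3cr1, Nr4a1 and Ear2 were higher than in cluster 1 in only one of the libraries. Cluster 8, led by heat-shock genes, held 87 and 84 members with 4616 and 5397 CPM of the chaperone Hspa1a and 1149 and 1155 CPM of the heme-degrading enzyme Hmox1. Cluster 11, led by Asprv1, Il1f9, Cxcr2 and G0s2, held 51 and 47 members, of which 34 and 37 had a doublet score above 0.25. Their S100a9 was at 9500 and 8740 CPM, beside 2295 and 2545 CPM of Thbs1.

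**Figure D2:**
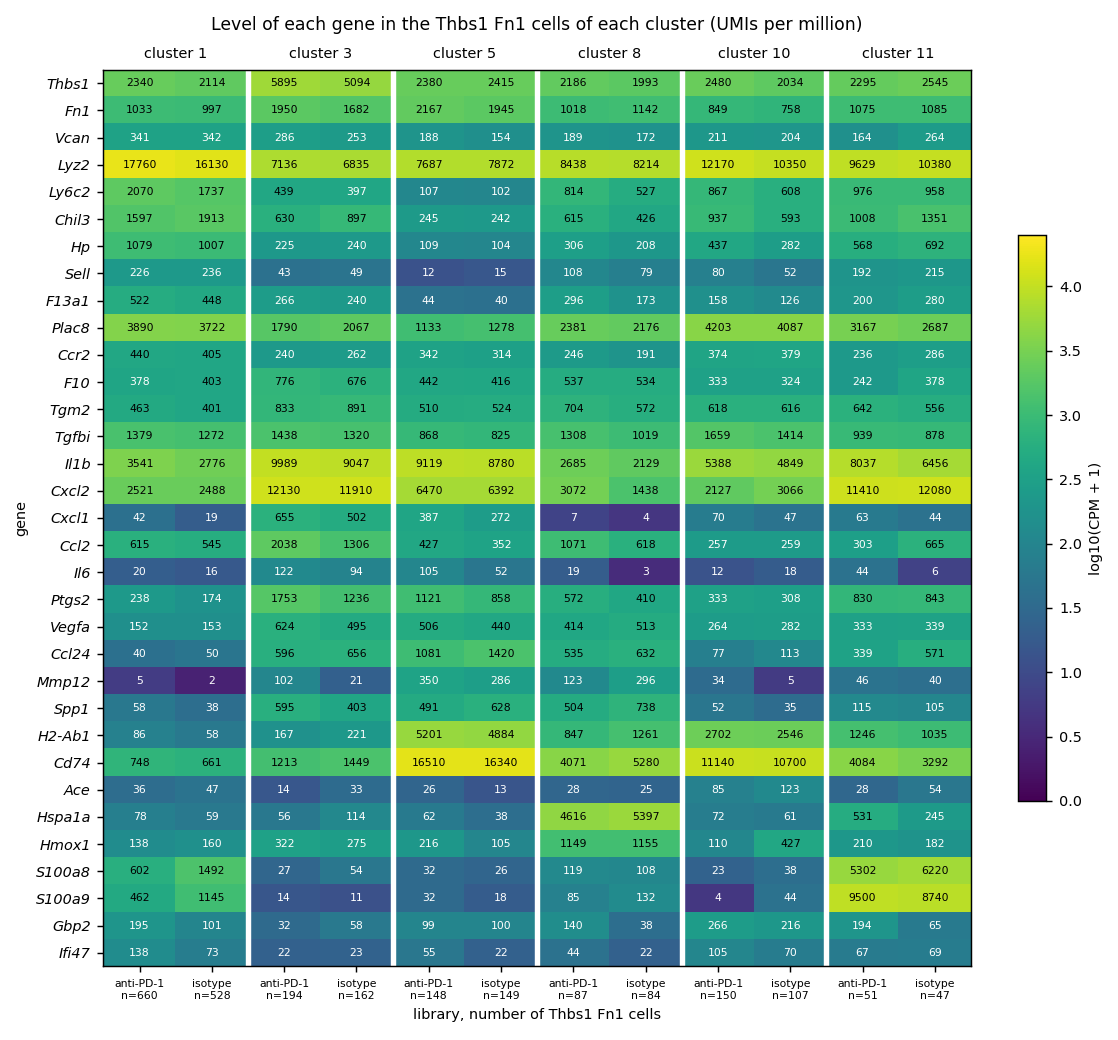
Level of 33 genes (rows) in the Thbs1 Fn1 cells of the 6 clusters that held at least 40 of them in both libraries (columns, split by library, with the number of cells); each field gives the CPM and colour gives log10(CPM + 1). Ly6c2 is highest in cluster 1 (2070 and 1737 CPM), Thbs1 in cluster 3 (5895 and 5094 CPM) and H2-Ab1 in cluster 5 (5201 and 4884 CPM).

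The members were set against cells of like gates within each library, with a pseudocount of 10 CPM, over genes at 50 CPM or more in both libraries of one of the classes. A gene was called where it differed at least 2-fold the same way in both libraries. The genes of the selection differ by construction. They are not left out of the counts over all genes compared, but are left out of the list counts of these comparisons. No difference between classes is a test. The nearest class, Ly6c2 Chil3 gated cells (422 and 395 cells with at least 2 UMIs of both genes that did not meet the Thbs1 and Fn1 limits), had 10 or more UMIs of S100a8 and S100a9 in 19.7% and 26.6% of cells. Against it 21 of 2647 genes were higher in the members (0.793%) and 51 lower (1.93%), and the 10 lowest were neutrophil and granulocyte precursor genes such as Ngp, Camp and Elane.

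The comparison was therefore repeated, as an alternative chosen after the data were seen, without the cells with 10 or more UMIs of that pair. This left 1222 and 1003 members against 339 and 290 Ly6c2 Chil3 gated cells. Of 2673 genes, 16 were then higher (0.599%) and 1, the transcription factor Klf2, lower (0.0374%). The remaining measured genes did not reach 2-fold the same way in both libraries.

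Of the 13 matrix genes compared 2 were called higher, and of the 3 growth and angiogenic factors 1, with none lower in either list. Spp1, osteopontin, was at 208 and 218 CPM in the members and 69.1 and 28.6 CPM in the Ly6c2 Chil3 gated cells, log2 differences of 1.46 and 2.56 in the anti-PD-1 and isotype libraries. Mmp12 was at 70.9 and 76.6 CPM against 18.6 and 5.10 CPM. The heparan sulfate proteoglycan Sdc1, a receptor for matrix and growth factors, was at 83.2 and 86.5 CPM against 32.3 and 32.5 CPM, and its relative Sdc4 at 180 and 164 CPM against 76.8 and 74.1 CPM. Vegfa, the angiogenic factor, was at 300 and 291 CPM against 132 and 131 CPM, and Inhba, the activin A subunit, at 80.1 and 74.8 CPM against 25.3 and 28.6 CPM. All 6 were higher in the members in both libraries, though Sdc4 belongs to the matrix receptor list and Sdc1 and Inhba to no list. Of the members, 48.2% and 48.9% had at least 2 UMIs of both Ly6c2 and Chil3. The excess was not even across the members. Cluster 1 members, with no cells left out, had 57.8 and 38.0 CPM of Spp1 and 5.14 and 1.68 CPM of Mmp12. Their Vegfa was at 152 and 153 CPM and their Inhba at 34.4 and 28.7 CPM. In cluster 5 members Spp1 was at 491 and 628 CPM. Sdc1 and Sdc4 are not given by cluster.

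Inflammatory genes were called for some members of the list and not for others. Ptgs2 was at 595 and 470 CPM against 285 and 197 CPM, Cxcl1 at 170 and 127 CPM against 59.6 and 32.9 CPM, and the cytokine Mif at 794 and 877 CPM against 388 and 365 CPM. Il1r2, the decoy receptor for interleukin 1, was at 227 and 261 CPM against 98.6 and 118 CPM. Cxcl1 belongs to the chemokine list and Mif to no list. Cluster 1 members, with no cells left out, had 238 and 174 CPM of Ptgs2 and 41.6 and 18.8 CPM of Cxcl1. Of the 11 inflammatory genes compared, 2, Ptgs2 and Il1r2, were called higher. The list's median log2 difference was 0.29 and 0.40, beside -0.01 and -0.03 over all genes compared. Il1b, at log2 differences of 0.59 and 0.70, was below the 2-fold limit. The other named higher genes were Dab2, an endocytic adaptor, AA467197, Cd9, a tetraspanin, Clec4n, the C-type lectin dectin-2, and Itgax, whose smaller difference was 0.98.

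Interferon genes were not called in this comparison. Gbp2 was at 178 and 115 CPM in the members and 443 and 202 CPM in the Ly6c2 Chil3 gated cells, Ifi47 at 103 and 58.9 CPM against 209 and 117 CPM, and Irf7, the factor of type I interferon responses, at 107 and 74.6 CPM against 216 and 177 CPM. Over the 14 interferon-gamma genes compared the median log2 difference was -0.60 and -0.56, with none past 2-fold in both libraries. Ace, Ear2 and Pglyrp1, listed genes of non-classical monocytes, were also lower, at log2 differences of -1.35 and -0.91, -1.03 and -0.91, and -0.94 and -1.27.

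Against C1q-high cells (236 and 185), 89 of 2690 genes were higher in the members (3.31%) and 65 lower (2.42%). Of 12 classical monocyte genes 7 were called higher, with medians of 1.36 and 1.48 on the log2 scale, beside 0.11 and 0.08 over all genes. Of 7 neutrophil genes 5 were called higher, with medians of 2.05 and 1.77, and without the S100a8 and S100a9 cells 2 of 2 were. Mgst1, a microsomal glutathione transferase, was at 367 and 329 CPM against 35.7 and 36.1 CPM, and F13a1 at 360 and 301 CPM against 54.3 and 36.1 CPM. All 6 MHC class II genes compared were lower, with medians of -2.11 and -2.16. H2-Eb1 was at 816 and 901 CPM against 4877 and 5741 CPM. Mrc1, the mannose receptor, Pf4 and the monocyte-attracting chemokines Ccl7 and Ccl12 were also lower, at log2 differences from -2.49 to -3.58.

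Arg1-high cells (170 and 185) had at least 5 UMIs of Arg1 and met the other limits, except that cells meeting both the Thbs1 and the Fn1 limit were left out. The 768 and 899 cells that the Arg1 limit alone kept from the members are thus not among them, so this class is a part of the cells with Arg1. Against it 92 of 2620 genes were higher (3.51%) and 69 lower (2.63%). The members had 6 of 12 classical monocyte genes higher and 4 of 19 hypoxia and glycolysis genes lower. Ly6c2 was at 1352 and 1087 CPM against 181 and 235 CPM. Spp1 was at 209 and 216 CPM against 1603 and 1547 CPM, Mmp12 at 68.4 and 69.6 CPM against 610 and 604 CPM, and Ccl24 at 282 and 396 CPM against 1971 and 2086 CPM. Spp1 and Mmp12 thus lay between the levels of the Ly6c2 Chil3 gated cells and the Arg1-high cells in both libraries.

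Cells that met every other limit but had no UMI of Thbs1 or Fn1 (296 and 254) were shallower, with medians of 6070 and 6999 UMIs, and 23.3% and 31.1% of them had 10 or more UMIs of S100a8 and S100a9. Against them 40 of 2681 genes were higher in the members (1.49%) and 71 lower (2.65%). Without the S100a8 and S100a9 cells, 49 of 2666 were higher (1.84%) and 37 lower (1.39%). Then Ccl2 was at 784 and 612 CPM in the members against 201 and 135 CPM, and F13a1 at 348 and 276 CPM against 46.1 and 10.0 CPM. Vcan was higher by 2.79 and 2.22 on the log2 scale. Of 7 non-classical monocyte genes 5 were called lower in the members, with medians of -1.51 and -1.62, and of 6 MHC class II genes 5, with medians of -2.11 and -1.86. Both dendritic cell genes compared were called lower. Among the named lower genes, Ccl17 was at 4.01 and 8.75 CPM in the members against 266 and 516 CPM, and Ccr7, a chemokine receptor, at 8.46 and 18.6 CPM against 169 and 166 CPM.

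Between the antibodies, genes were compared by the log2 ratio of their CPM in the anti-PD-1 members to that in the isotype members, with an exact binomial interval. A gene counted as called at a ratio of at least 1.5 in either direction. Of 8175 genes with at least 100 UMIs over both libraries, 99 were called higher (1.21%) and 65 lower (0.795%). The median gene was at 0.06. After TMM scaling, which lowers every ratio by 0.05, the counts were 72 and 87, so which direction had more calls depended on the scaling.

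Lists were counted over genes with at least 50 UMIs over both libraries. Of all 9257 such genes 64.8% were higher in anti-PD-1, with a median log2 ratio of 0.06, 184 were past 1.5-fold higher (1.99%) and 143 past 1.5-fold lower (1.54%). Of the interferon-gamma response list's 25 measured genes 24 were higher in anti-PD-1, 10 of them past 1.5-fold, none past 1.5-fold lower, and the median log2 ratio was 0.51. Without the S100a8 and S100a9 cells 22 were higher, 9 past 1.5-fold, and the median was 0.43. The list was chosen with earlier results of these data known. Gbp2 was at 175 CPM in the anti-PD-1 and 106 CPM in the isotype members, a log2 ratio of 0.72 (0.62 to 0.83). Irf1 was at 205 and 141 CPM, 0.54 (0.44 to 0.63). This transcription factor was higher without reaching 1.5-fold.

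Immunity-related GTPases act on vacuoles that hold microbes. Irgm1 was at 41.4 and 26.4 CPM, a log2 ratio of 0.65 (0.44 to 0.87). Igtp was at 22.9 and 11.3 CPM, a log2 ratio of 1.02 (0.71 to 1.34), from UMIs in 178 and 82 members. Irgm2 overlaps it on the same strand, so reads of these 2 genes may not be told apart. Ifi47 was at 102 and 57.1 CPM, 0.83 (0.69 to 0.97). Tgtp2 was at 10.3 and 3.77 CPM, 1.45 (0.92 to 2.00), but its near-identical copy Tgtp1 makes the assignment of reads between them uncertain. Ly6a, the interferon-inducible surface protein Sca-1, was at 58.4 and 23.6 CPM, 1.31 (1.10 to 1.52), in 185 and 99 members.

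Chemokine and checkpoint genes of the same list were less uniform. Cxcl10, a ligand of the T cell receptor Cxcr3, was at 220 and 147 CPM, a log2 ratio of 0.58 (0.49 to 0.67), and the 10 members richest in it held 38.3% and 41.0% of its UMIs. Cd274, which encodes PD-L1, was at 150 and 147 CPM, 0.03 (-0.07 to 0.13). Nos2, inducible nitric oxide synthase, was the 1 measured gene of the list that was lower, at -0.18 (-0.80 to 0.45), and was at about 4 CPM. Psmb8, an immunoproteasome subunit, was at 507 and 433 CPM, 0.23 (0.17 to 0.28).

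**Figure D3:**
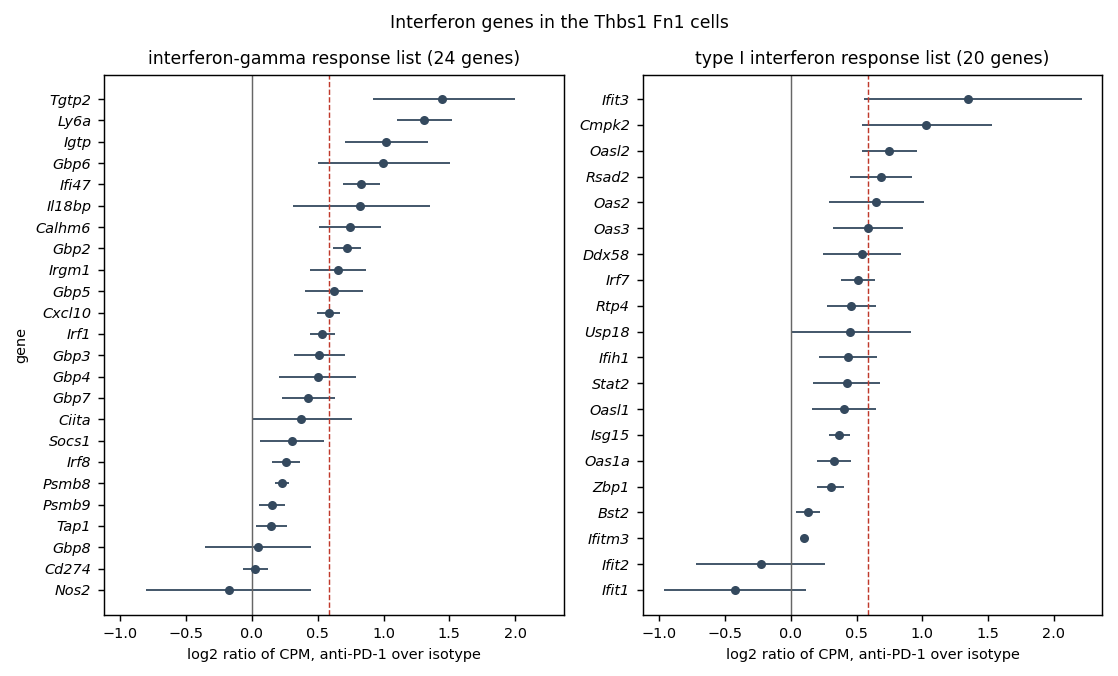
Log2 ratio of CPM, anti-PD-1 over isotype, for 24 of the 25 measured genes of the interferon-gamma response list (left) and all 20 of the type I interferon response list (right) in the Thbs1 Fn1 cells; bars are 95% intervals of counting error and the dashed line marks 1.5-fold. On the left 23 genes lie above 0 and on the right 18 do.

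Of 20 measured type I interferon genes 18 were higher and 5 past 1.5-fold, with a median log2 ratio of 0.44. Without the S100a8 and S100a9 cells 18 were higher, 4 past 1.5-fold, 1 was past 1.5-fold lower, and the median was 0.36. Isg15, a ubiquitin-like modifier, was at 251 and 194 CPM, 0.37 (0.29 to 0.45). Oasl2, of the oligoadenylate synthetase family, was at 46.5 and 27.7 CPM, 0.75 (0.54 to 0.96). Ifit1 and Ifit2 were the 2 lower genes, at -0.42 (-0.97 to 0.11) and -0.23 (-0.72 to 0.26).

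All 13 measured MHC class I genes were higher, none past 1.5-fold, with a median of 0.15. Of 8 MHC class II genes, 6 were lower and 1 past 1.5-fold, with a median of -0.11. H2-Ab1 was at 1127 and 1225 CPM, -0.12 (-0.15 to -0.09). Cd74, the invariant chain, was at 4305 and 4653 CPM, -0.11 (-0.13 to -0.09). Ciita, the master regulator of these genes, had 147 and 98 UMIs, 0.38 (-0.00 to 0.76). Within clusters the direction of the MHC class II genes varied. In cluster 1 all 6 measured were higher, with a median of 0.33, in cluster 5 6 of 7 (0.12), in cluster 10 all 7 (0.09) and in cluster 11 all 6 (0.24). In clusters 3 and 8 all 6 were lower, with medians of -0.21 and -0.46. Over all genes measured in clusters 1, 5, 10 and 11, 5108 of 8217, 2885 of 4970, 2930 of 4936 and 1377 of 2474 were higher. The medians over all genes there were 0.05, 0.06, 0.06 and 0.05, so the class II median of cluster 10 lay close to its own. In clusters 3 and 8 2744 of 4938 and 1948 of 3242 genes were higher, with medians of 0.03 and 0.07.

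The interferon-gamma difference was not even across the members. Within cluster 1, the Ly6c2 and Chil3 cells, 22 of 23 measured genes of the list were higher, 14 past 1.5-fold, and the median was 0.68. Of all 8217 genes measured there 227 were past 1.5-fold higher. Gbp2 was at 195 and 101 CPM there and Ifi47 at 138 and 73.2 CPM. Within cluster 3, the cells with most Thbs1, 2 of 11 measured genes were higher, none past 1.5-fold, and 1 was past 1.5-fold lower. The median there was -0.08, with Gbp2 at 32.1 and 57.9 CPM. The medians in clusters 5, 8, 10 and 11 were 0.23, 0.28, 0.22 and 0.05. The difference between clusters was not tested, and fewer genes reached 50 UMIs in the smaller ones.

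The members were also split by Ly6c2 and H2-Ab1. In members with a UMI of Ly6c2 and none of H2-Ab1 after thinning, 657 and 515 cells, 22 of 22 measured genes of the list were higher, with a median of 0.61. In members with H2-Ab1 and without Ly6c2, 258 cells in each library, 18 of 21 were higher, with a median of 0.26. With both genes, 226 and 163 cells, 20 of 22 were higher, with a median of 0.27. With neither, 142 and 137 cells, 12 of 14 were higher, with a median of 0.53.

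Outside the members the same list had medians of 0.71 in the Ly6c2 Chil3 gated cells, 0.54 in C1q-high cells, 0.42 in Arg1-high cells and 0.14 in lymphocyte-gated cells. In cells that met every other limit but had no UMI of Thbs1 or Fn1 it was 0.89, with 23 of 23 genes higher, 19 past 1.5-fold. Over all filtered cells that were not members it was 0.78, with 27 of 27 genes higher. Cxcl9 is known as an interferon-gamma target, and the Cxcl9 limit of the selection alone removed 73 anti-PD-1 and 47 isotype cells. The compared myeloid classes carried the same limit. The lymphocyte-gated cells and the filtered cells that were not members did not. With the limit dropped for the members only, an alternative chosen after the data were seen, all 27 measured genes were higher, 16 past 1.5-fold. The median was then 0.73, beside 0.51 with the limit. Of all 9370 genes then measured 5961 were higher, 186 past 1.5-fold. Why the members differed from the other classes was not tested. Igtp, Tgtp2 and Ly6a had log2 ratios of -0.05, 0.14 and 0.09 in lymphocyte-gated cells and of 0.95, 1.16 and 1.03 in all filtered cells that were not members.

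**Figure D4:**
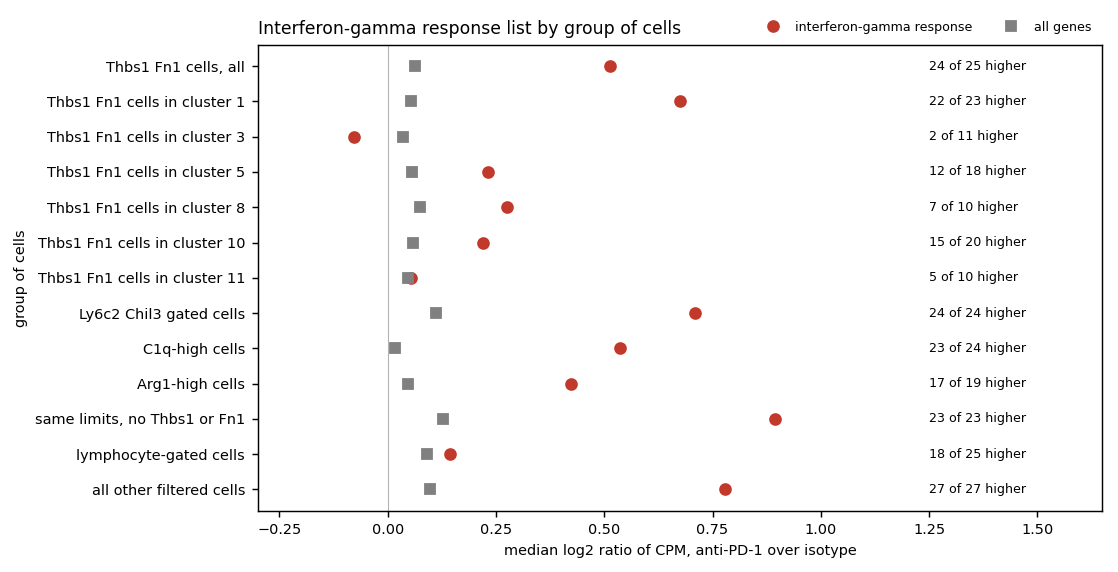
Median log2 ratio of CPM, anti-PD-1 over isotype, of the interferon-gamma response list (circles) and of all genes with at least 50 UMIs (squares), in the Thbs1 Fn1 cells, in their 6 main clusters and in other cells; text gives how many measured list genes were higher. Within the Thbs1 Fn1 cells the list's median runs from -0.08 in cluster 3 to 0.68 in cluster 1.

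Of 15 measured inflammatory genes 12 were higher and 1 past 1.5-fold, with a median of 0.18, beside 64.8% higher and a median of 0.06 over all genes. The gene past 1.5-fold was Il23a, the p19 subunit of interleukin 23, at 22.1 and 7.35 CPM, a log2 ratio of 1.59 (1.22 to 1.97). Its UMIs came from 54 and 25 members, and without the richest cell of each library the ratio was 1.68. Il1b was at 5386 and 4748 CPM, 0.18 (0.17 to 0.20), and Ptgs2 at 597 and 458 CPM, 0.38 (0.33 to 0.43). Il6 was at 42.6 and 29.6 CPM, 0.53 (0.32 to 0.73).

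Of 20 measured chemokines and chemokine receptors 13 were higher, none past 1.5-fold, and 1 was past 1.5-fold lower, with a median of 0.09. The monocyte attractant Ccl2 was at 749 and 594 CPM, 0.33 (0.29 to 0.38), and Ccl7, a second ligand of Ccr2, at 77.5 and 52.6 CPM, 0.56 (0.41 to 0.71). Ccl24 was lower, at 282 and 396 CPM, -0.49 (-0.55 to -0.42), and the neutrophil chemokine Cxcl2 was level at 4543 and 4595 CPM, -0.02 (-0.03 to 0.00). Areg, the epidermal growth factor receptor ligand amphiregulin, was at 43.1 and 17.5 CPM, 1.30 (1.06 to 1.55), with UMIs in 82 and 48 members.

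Thbs1 and Fn1 are genes of the selection, so their ratios are bounded by it. Thbs1 was at 2797 and 2492 CPM, 0.17 (0.14 to 0.19), Fn1 at 1249 and 1200 CPM, 0.06 (0.02 to 0.09), and Vcan at 281 and 270 CPM, 0.05 (-0.02 to 0.13). The 20 measured genes of the matrix list had a median of 0.06, the 16 of the coagulation list 0.09 and the 14 of the TGF-beta list 0.06, beside 0.06 over all genes. Tgfb1 itself was at 841 and 838 CPM, 0.00 (-0.04 to 0.04). Pmepa1, a target of TGF-beta, was at 13.6 and 7.06 CPM, 0.95 (0.55 to 1.36), a low level.

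Among monocyte genes, 11 of 13 measured were higher, none past 1.5-fold, with a median of 0.08 beside 0.06 over all genes. Ly6c2 was at 0.31 (0.28 to 0.35) and Fcgr1, the high-affinity Fc receptor CD64, at 172 and 123 CPM, 0.48 (0.38 to 0.58). Chil3 was lower, at 1139 and 1321 CPM, -0.21 (-0.25 to -0.18).

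**Figure D5:**
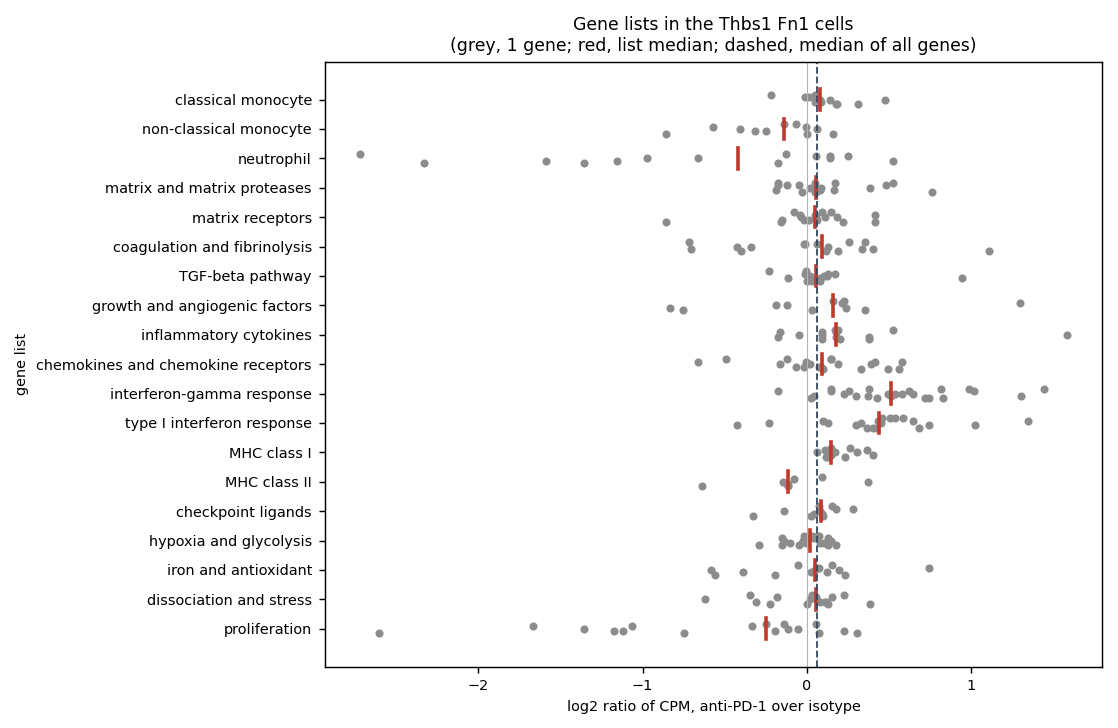
Log2 ratio of CPM, anti-PD-1 over isotype, in the Thbs1 Fn1 cells for each measured gene (grey points) of 19 gene lists, with the list median (red) and the median of all genes (dashed, 0.06). The 2 interferon lists have the highest medians (0.51 and 0.44) and the neutrophil list the lowest (-0.42).

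Several of the genes with the highest ratios differed in the same way in cells of other types. Brd1, a scaffold of a histone acetyltransferase complex, was at 48.3 and 20.8 CPM in the members, a log2 ratio of 1.21 (0.99 to 1.44), and its ratio was 0.95 in lymphocyte-gated cells. Egln1, an oxygen-sensing prolyl hydroxylase, Sppl3, an intramembrane protease, Ppp2cb, a phosphatase subunit, and Plekhm2, a lysosome adaptor, had ratios of 1.06, 1.14, 0.94 and 1.00 in the members and of 1.12, 1.47, 0.97 and 1.52 in lymphocyte-gated cells. These 5 genes thus lay on the same side in lymphocyte-gated cells, and antibody and library cannot be told apart.

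Several of the genes with the lowest ratios were neutrophil genes. S100a8 was at 609 CPM in the anti-PD-1 and 1559 CPM in the isotype members, -1.36 (-1.40 to -1.32), and without the members with 10 or more UMIs of S100a8 and S100a9 it was at -0.40 (-0.60 to -0.21). Its lower ratio was not particular to the members. It was at -0.81 in all filtered cells that were not members, -1.23 in Ly6c2 Chil3 gated, -1.44 in C1q-high and -0.52 in lymphocyte-gated cells. In cells with no UMI of Thbs1 or Fn1 that met every other limit it was at -1.45, and in Arg1-high cells at 3.53. Few cells set the ratios of the small classes. In Arg1-high cells 6 anti-PD-1 cells held 1093 of the 1126 UMIs of S100a8 and S100a9, and all isotype cells together had 106. In C1q-high cells 11 anti-PD-1 and 9 isotype cells held 97.3% and 97.6% of the UMIs of the pair. Camp, an antimicrobial granule peptide, had 84 UMIs in 1 anti-PD-1 member and 480 in 7 isotype members, 462 of them in a single cell. Ngp had 198 and 863 UMIs, of which single cells held 151 and 543. Ltf, lactoferrin, and Lcn2, lipocalin 2, were at -1.59 and -0.98. Without the S100a8 and S100a9 cells they were at -2.03 (-3.82 to -0.53) and -0.26 (-0.45 to -0.06). Of 14 measured neutrophil genes 7 were past 1.5-fold lower, with a median of -0.42. Without the S100a8 and S100a9 cells only 9 reached 50 UMIs, of which none was past 1.5-fold lower, and the median was 0.08. Those 97 and 106 members were left out by their own counts of 2 genes of the list, and 32 and 36 of them had a doublet score above 0.25.

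Hspb1, a small heat-shock protein, had 166 UMIs in 13 anti-PD-1 members and 664 in 17 isotype members, and Lyz1 29 and 114, of which 88 were in 1 isotype cell. Of 17 measured proliferation genes 13 were lower, 7 past 1.5-fold, with a median of -0.25. Without the S100a8 and S100a9 cells 10 of 15 were lower, 3 past 1.5-fold, with a median of -0.15. Birc5, the mitotic survival factor, had 47 UMIs in 17 anti-PD-1 members and 104 in 26 isotype members, so these ratios describe few cells. In all filtered cells that were not members Birc5 was on the other side, at 0.68. It was lower in Ly6c2 Chil3 gated cells, as in the members, and higher in C1q-high cells, at 0.72. The proliferation list's median was -0.58 in Ly6c2 Chil3 gated cells, where 18 of 19 genes were lower, beside 0.11 over all genes. In that class 19.7% and 26.6% of cells had 10 or more UMIs of S100a8 and S100a9, and they were not left out. The list's median was -0.19 in cells with no UMI of Thbs1 or Fn1 that met every other limit, and -0.02 in Arg1-high cells. The median was 0.44 in C1q-high, 0.59 in lymphocyte-gated and 0.52 in all filtered cells that were not members.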

How the data were processed

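Per the file headers, the authors deposited unnormalized UMI counts, 1 sparse matrix a library, written by Cell Ranger 5.0.1. Version 2.1.1 and the build mm10 stand in the submitters' processing notes. A dense table of each library was not used here. Members and gene lists were chosen with earlier results of these data known. The all-barcode totals were 72148493 and 67520433 UMIs, in 10149 and 9683 barcodes; 10014 and 9566 passed the filters.

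UMIs were summed over the cells of a class and library and scaled to CPM. Ratios carry exact conditional binomial 95% intervals and shares exact Clopper-Pearson intervals, for counting error only. Lists used genes with at least 50 UMIs over both libraries. Doublets were scored with scrublet in scanpy 1.11.5 and kept; its automatic threshold marked 2 of all barcodes and so did not work, and leaving out scores above 0.25 was an alternative. Clustering used 2000 variable genes, 30 components, 15 neighbours and Leiden resolution 1.0. Lymphocyte-gated cells had a UMI of at least 2 of Cd3d, Cd3e, Cd3g, Cd79a, Cd79b and Ms4a1 and at most 1 UMI of Lyz2.

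Named genes were the selection genes and Vcan; the 12 highest and 12 lowest between the libraries, by the interval bound nearest 0, with at least 100 UMIs; the 15 highest and 10 lowest against the Ly6c2 Chil3 gated cells; the 8 highest and 8 lowest against the C1q-high and Arg1-high cells; and listed genes, chosen by role. Some that the rule names are given only in counts. In the comparison without the S100a8 and S100a9 cells the same ranking was applied again. Alternatives were mitochondrial limits, Thbs1 and Fn1 limits, doublet scores, TMM scaling (edgeR 4.0.16), the mean of per-cell CPM, thinning to 3000 UMIs and UMI minimums. The S100a8 and S100a9 limit, dropping the Cxcl9 limit and dropping the richest cells were added after the data were seen. The ratio script was tested on simulated data. Positions come from GENCODE vM21, in which 32160 of 32280 gene identifiers were found. A few listed or named genes are counted in the lists but not reported here by name.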

Additional observations from a re-analysis of the deposited data

How the results depend on the processing

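No paired analysis was possible because each group is 1 library. The difference in the share of members kept its direction in all 7 alternatives, between 1.22 and 1.87 percentage points. The 99 higher and 65 lower genes became 633 and 585 with a minimum of 10 UMIs, 35 and 26 with 300, and 40 lower after thinning to 3000 UMIs; a lower minimum tests more genes with wider counting error. Without the Cxcl9 limit the interferon-gamma genes had a median of 0.73, against 0.51. The median of the neutrophil list turned to 0.075 without the cells with 10 or more S100a8 and S100a9 UMIs, which were chosen on 2 genes of that list, and covers 9 genes with at least 50 UMIs in place of 14. The ratio of Lyz1 turned to 0.17 with at least 3 UMIs of Thbs1 and Fn1, and that of Birc5 to 0.0052 after thinning; the cause was not tested. With 1 library per group, intervals cover counting error only, and differences between mice, days or library preparations cannot be told apart from the antibody.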

Other observations

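Stress and metal genes of the Thbs1 Fn1 cells belong in none of the comparisons above. The metallothionein Mt1 was at 861 CPM in the anti-PD-1 and 1127 CPM in the isotype members, a log2 ratio of -0.39 (-0.43 to -0.35), and Mt2 at 17.0 and 25.5 CPM, -0.58 (-0.85 to -0.32). The heat-shock chaperone Hspa1b was at 227 and 349 CPM, -0.62 (-0.69 to -0.55), and Hspa1a at 373 and 461 CPM, -0.31 (-0.37 to -0.25). These levels rest largely on the 87 and 84 members of cluster 8, with 3068 and 4341 CPM of Hspa1b and 4616 and 5397 CPM of Hspa1a. Within clusters 3 and 8 both genes were lower in anti-PD-1. Within clusters 1, 5, 10 and 11 both were higher. The immediate-early gene Fos, which tissue dissociation can induce, was at 465 and 356 CPM, 0.39 (0.33 to 0.45). Ferritin heavy chain Fth1 was level, at 0.02 (0.02 to 0.03). The whole dissociation and stress list had a median of 0.06 over 17 genes, with 12 higher and 5 lower.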
